A study of Mus musculus with 16 samples.

Results

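The insulin-like growth factor (IGF) axis was followed through 10 genes of the 14602 named on the arrays. They are the ligands Igf1 and Igf2, the receptors Igf1r and Igf2r, and the binding proteins Igfbp2, Igfbp3, Igfbp4, Igfbp5, Igfbp6 and Igfbp7. Every probe set annotated to one of these genes on either chip was taken, whatever its signal. This gave 18 probe sets for 9 of the genes, 14 on chip A and 4 on chip B. Igfbp5 was represented only by 1 further probe set that is annotated to both Igfbp5 and Tmem119, and that probe set is counted apart. A level filter, which asked for at least 1 condition above the median of the chip, was passed by 13 of the 18 probe sets, from 6 genes. Those 13 were above that level in all 4 conditions in 6 cases, in 3 conditions in 2 cases, in 2 conditions in 4 cases and in 1 condition in 1 case, so some had to differ between conditions in order to pass.

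The cells were mouse endothelial cell lines, and the labels give all samples an origin in embryonic stem cells null for both copies of the VE-cadherin (VEC) gene, Cdh5. VEC is the cadherin of endothelial adherens junctions. The 4 conditions were VEC-positive cells at confluence, VEC-positive cells when sparse, VEC-null cells at confluence and VEC-null cells when sparse, all starved for 36 h in medium with albumin before lysis. The sources used here do not say how the VEC-positive cells regained VEC, or from how many clones or cultures either line came. Per the labels, 1 cRNA sample per condition was hybridised to 2 copies of each chip (16 arrays), so the p values below measure the spread between hybridisations and do not cover differences between cultures. Values are MAS5 signals, and log2 changes with their standard error (SE) are on the scale of the signal plus 50. A probe set passed at a limma adjusted p below 0.05 and a log2 change of at least 1, and the folds are on the same scale. The signals of different probe sets were not set against each other.

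IGF1 and IGF2 are secreted growth factors that signal through the tyrosine kinase receptor IGF1R. IGF2R, the cation-independent mannose 6-phosphate receptor, binds IGF2 without a kinase of its own, carries it to lysosomes for degradation and sorts lysosomal enzymes. The IGFBPs bind the ligands outside the cell, where they can hold them back from the receptor, prolong their life or release them after cleavage by proteases. IGFBP7 binds IGFs weakly and is known for its high level in vessel walls.

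Upstream sequences of all 10 genes were available from RefSeq (GRCm38.p6), as 14 windows of the 250 bases before an annotated start. Those of Igf1, Igfbp3 and Igfbp4 are shown because each gene has a single window among the 14 and had higher signals at confluence below. A gene may have starts that these windows do not cover. The Igf1 window is chr10:87860861-87861110 on the plus strand, the Igfbp3 window is chr11:7213924-7214173 on the minus strand and the Igfbp4 window is chr11:99040994-99041243 on the plus strand. Each is given 5′ to 3′ along the gene's strand, with motif matches in capitals.
Igf1: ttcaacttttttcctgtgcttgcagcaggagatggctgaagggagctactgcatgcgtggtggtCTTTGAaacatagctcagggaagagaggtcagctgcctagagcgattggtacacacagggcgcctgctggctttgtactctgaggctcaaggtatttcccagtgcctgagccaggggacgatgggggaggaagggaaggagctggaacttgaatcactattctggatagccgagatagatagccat
Igfbp3: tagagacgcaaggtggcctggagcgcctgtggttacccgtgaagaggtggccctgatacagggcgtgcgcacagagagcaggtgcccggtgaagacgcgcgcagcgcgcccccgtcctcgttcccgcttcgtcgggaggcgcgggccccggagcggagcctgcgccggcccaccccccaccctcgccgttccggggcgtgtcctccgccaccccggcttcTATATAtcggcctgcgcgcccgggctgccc
Igfbp4: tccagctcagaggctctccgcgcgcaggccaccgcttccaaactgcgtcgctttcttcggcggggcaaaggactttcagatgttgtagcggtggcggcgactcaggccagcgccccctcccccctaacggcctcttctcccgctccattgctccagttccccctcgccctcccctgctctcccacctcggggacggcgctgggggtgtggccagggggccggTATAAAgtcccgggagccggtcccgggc
The capitals mark a CTTTGA core of TCF sites in Igf1, a TATATA box in Igfbp3 and a TATAAA box in Igfbp4. The search covered 5 motifs on both strands, in these windows and in all 32851 RefSeq mouse windows of this length. The GC box GGGCGG was in 32.7% of all windows and in 6 of the 14 windows of the IGF genes, none of them among the 3 shown. TATAAA was in 12.4% of all windows and in 2 of the 14, and TATATA was in 5.25% and in 1. CTTTGA was in 13.8% and in 3 of the 14, and the FoxO core TGTTTAC was in 3.17% and in 0. A match describes the letters of the window and does not show a bound site.

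The array copies of a condition correlated at r between 0.951 and 0.989. The 3′ to 5′ signal ratios of the control probe sets were between 0.903 and 1.23 for Gapdh and between 1.11 and 1.33 for actin. The control signals were lowest in confluent VEC-positive cells, where the 3′ Gapdh set read 12788 to 12920 on chip A, against 16729 to 21421 in the other conditions. Cdh5 itself had 2607 and 2526 in confluent and 1464 and 1334 in sparse VEC-positive cells, and 2707 and 2509 in confluent and 1255 and 1282 in sparse VEC-null cells. It therefore did not tell the lines apart (log2 -0.02, adjusted p 0.87 at confluence, and 0.13, adjusted p 0.26 in sparse cells). The deleted stretch of Cdh5 is not named in the sources used here, so the signal of its probe set checks nothing about the labels, and each direction between the lines rests on the labels as given. Of 15 endothelial markers, 14 were on the chips and all 14 passed the level filter, with summed signals of 58797 in confluent and 27741 in sparse VEC-positive cells, and 59786 in confluent and 16752 in sparse VEC-null cells. Of these 14, 9 rose with confluence in each line and 0 fell. At confluence 2 of them were higher in VEC-positive than in VEC-null cells, the tight junction gene Cldn5 (5115 ± 151 against 50.5 ± 38.9, log2 5.74, adjusted p 7.8e-07) and Vwf, von Willebrand factor (2516 ± 110 against 21.9 ± 2.05, log2 5.16, adjusted p 9.4e-08). Both were above the filter level in confluent VEC-positive cells only.

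Igf1, the main ligand of IGF1R, rose with confluence in both lines on 3 of its 4 probe sets and reached its highest signal in confluent VEC-positive cells. Probe set 95546_g_at had 4925 and 4442 in confluent VEC-positive cells, 194 and 223.6 in sparse VEC-positive cells, 2032 and 2409 in confluent VEC-null cells, and 202.6 and 205 in sparse VEC-null cells. The confluent and sparse copies did not overlap in either line, and the sparse copies of both lines overlapped each other. Confluent over sparse, the log2 change was 4.19 in VEC-positive cells (SE 0.12, 18.3-fold, adjusted p 1.3e-08) and 3.16 in VEC-null cells (SE 0.12, 8.91-fold, adjusted p 5.6e-08). In bulk RNA, fewer cells of a type and less RNA per cell cannot be told apart, here and below.

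The other Igf1 probe sets gave the same order of the confluent conditions. Probe set 107959_at on chip B had 31062 and 30853 in confluent and 1745 and 1683 in sparse VEC-positive cells, and 14609 and 14369 in confluent and 1113 and 1006 in sparse VEC-null cells. Probe set 115861_at on chip B had 5171 and 4909 in confluent and 268.8 and 218 in sparse VEC-positive cells, and 1644 and 1722 in confluent and 129.1 and 193.6 in sparse VEC-null cells. In both, confluent VEC-positive copies were the highest and sparse VEC-null copies the lowest, and no 2 conditions overlapped. Their density changes were 4.14 (SE 0.07) and 4.12 (SE 0.17) in VEC-positive cells and 3.71 (SE 0.07) and 3.05 (SE 0.17) in VEC-null cells, and all 4 passed. Probe set 95545_at had 1230 and 1462 in confluent and 428 and 290.8 in sparse VEC-positive cells, and 843.6 and 870.6 in confluent and 425.6 and 402.9 in sparse VEC-null cells. Its sparse copies overlapped between the lines, and its density change passed in VEC-positive cells (1.79, SE 0.16, adjusted p 1.4e-05) but stayed under a log2 change of 1 in VEC-null cells (0.97, SE 0.16, adjusted p 0.00077). The last change passed with no offset (1.05) and without the first sparse VEC-null copy (1.0019).

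Between the lines, Igf1 was higher in VEC-positive than in VEC-null cells at confluence, with a log2 change of 1.06 on 95546_g_at (SE 0.12, 2.09-fold, adjusted p 0.00015). The change was 1.09 on 107959_at (SE 0.07, adjusted p 8.2e-06) and 1.55 on 115861_at (SE 0.17, adjusted p 0.00012), while 0.62 on 95545_at (adjusted p 0.015) did not reach 1. When the cells were sparse, the 4 changes were 0.03, 0.67, 0.48 and -0.20 for 95546_g_at, 107959_at, 115861_at and 95545_at, and none passed. The density response differed between the lines on 95546_g_at (interaction 1.04, SE 0.17, adjusted p 0.0017) and on 115861_at (1.07, SE 0.24, adjusted p 0.0085), and it did not pass on 107959_at (0.42) or 95545_at (0.82). The line difference at confluence fell below 1 on 95546_g_at without the first confluent VEC-null copy (0.94) or the first confluent VEC-positive copy (0.99), and on 107959_at after quantile normalisation (0.89). The interaction call on 115861_at was lost with an offset of 0 (0.97) and that on 95546_g_at with one of 200 (0.9985). Both were also lost without single copies, at 0.92 without the first confluent VEC-null copy, 0.95 without the first sparse VEC-positive copy and 0.96 without the first confluent VEC-positive copy on 95546_g_at, and at 0.85 without the second sparse VEC-null copy and 0.94 without the second sparse VEC-positive copy on 115861_at, whereas 95545_at passed without the first sparse VEC-positive copy (1.06).

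Igf1 lies on chromosome 10, and other genes of that chromosome were also higher in VEC-positive cells. The median of 450 other chromosome 10 genes was 0.45 at confluence and 0.38 when sparse, against -0.03 for all probe sets tested in either comparison. Among the 40 nearest tested genes, 20 on each side of Igf1, the median was 0.81 at confluence and 0.54 when sparse. The part of this shift in the Igf1 line difference was not tested. The same 40 neighbours had medians of 0.22 in VEC-positive and -0.06 in VEC-null cells for the density change, beside the 4.19 and 3.16 of Igf1. For the other 5 genes, the neighbours' medians lay between -0.24 and 0.26 in all 4 comparisons.

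Igf2, the ligand shared by IGF1R and IGF2R, also rose with confluence in both lines, but its highest signal was in confluent VEC-null cells. Probe set 98623_g_at had 454.7 and 450.7 in confluent VEC-positive cells, 106.1 and 119.7 in sparse VEC-positive cells, 1279 and 1358 in confluent VEC-null cells, and 98 and 72.4 in sparse VEC-null cells. The conditions did not overlap, and both sparse conditions lay under the filter level of chip A (159.4). Confluent over sparse, the log2 change was 1.63 in VEC-positive cells (SE 0.14, 3.09-fold, adjusted p 1.2e-05) and 3.35 in VEC-null cells (SE 0.14, 10.2-fold, adjusted p 9.8e-08). At confluence Igf2 was lower in VEC-positive than in VEC-null cells (log2 -1.44, SE 0.14, 2.72-fold, adjusted p 7.1e-05), and when sparse the change was 0.27 (adjusted p 0.16). The interaction was -1.72 (SE 0.20, adjusted p 0.0003), of opposite sign to that of Igf1. The second Igf2 probe set, 98622_at, read between 7.4 and 23.4 on all 8 arrays of its chip and did not pass the level filter. It averaged 11.05 in confluent VEC-null cells and did not show the differences seen on 98623_g_at. The Igf2 results therefore rest on 98623_g_at alone, and the reason for the disagreement was not tested.

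Igf1r, the signalling receptor, was highest in sparse VEC-positive cells on all 3 of its probe sets. Probe set 102224_at had 203.6 and 160.8 in confluent and 508.4 and 445.1 in sparse VEC-positive cells, and 85.5 and 122.6 in confluent and 172.8 and 111.2 in sparse VEC-null cells. On 106956_at the signals were 259 and 202.5 in confluent and 904 and 840.7 in sparse VEC-positive cells, and 198.1 and 145.6 in confluent and 286.5 and 329.2 in sparse VEC-null cells. On 116112_at they were 87.2 and 48.4 in confluent and 251 and 281.9 in sparse VEC-positive cells, and 124.4 and 60.6 in confluent and 58.7 and 83.9 in sparse VEC-null cells. This last probe set was above the filter level of chip B (235.1) in sparse VEC-positive cells only. It was thus tested only because of the condition where it was highest, and its calls are not separate support for the others. On each probe set both sparse VEC-positive copies lay above all copies of the other conditions, while several of those conditions overlapped with each other on 102224_at and 116112_at.

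In VEC-positive cells Igf1r fell at confluence, by 1.19 on the log2 scale on 102224_at (SE 0.21, adjusted p 0.0011), by 1.72 on 106956_at (SE 0.21, adjusted p 0.00013) and by 1.44 on 116112_at (SE 0.35, adjusted p 0.0073). In VEC-null cells the changes were -0.31, -0.70 and 0.20, and none passed. Among sparse cells Igf1r was higher in VEC-positive than in VEC-null cells, by 1.47 (SE 0.21, 2.77-fold, adjusted p 0.00041), 1.37 (SE 0.21, adjusted p 0.00081) and 1.39 (SE 0.35, adjusted p 0.011), and among confluent cells the changes were 0.60, 0.34 and -0.26, with none passing. The interaction passed on 106956_at (-1.03, SE 0.30, adjusted p 0.03) and 116112_at (-1.65, SE 0.49, adjusted p 0.033) and was -0.88 on 102224_at (adjusted p 0.048). Without the level filter both interaction calls were lost at the same log2 values. They were also lost with an offset of 0 (-1.07, adjusted p 0.055 on 106956_at, and -2.34, adjusted p 0.058 on 116112_at) and with one of 200 (-0.87 and -0.91), and leaving out any of 6 of the 8 chip B copies lost both calls too, at -0.85 to -1.11 on 106956_at and -1.32 to -1.80 on 116112_at, whereas 102224_at passed without the first sparse (-1.11) or the first confluent (-1.05) VEC-null copy. With an offset of 200 in place of 50, the sparse line differences on 102224_at (0.99) and 116112_at (0.78) and the VEC-positive density changes on the same sets (-0.82 and -0.80) were below 1 in size, and the sparse line difference on 116112_at did not pass without the first sparse VEC-null (1.24) or the second sparse VEC-positive copy (1.32).

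Igf2r, which removes IGF2 and sorts lysosomal enzymes, had 1288 and 1269 in confluent and 995.2 and 1074 in sparse VEC-positive cells, and 879.1 and 813.7 in confluent and 443.9 and 462.8 in sparse VEC-null cells. The conditions did not overlap, and sparse VEC-null cells were the lowest. Igf2r was higher in VEC-positive than in VEC-null cells when sparse (log2 1.11, SE 0.10, 2.15-fold, adjusted p 3.2e-05), a call lost with an offset of 200 (0.92). The remaining changes were below 1, at 0.57 between the lines at confluence, 0.29 with density in VEC-positive cells and 0.83 with density in VEC-null cells, and the interaction was -0.54.

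Some markers of other cell types were high in sparse VEC-positive cells, where Igf1r was highest. The 7 epithelial and mesothelial markers summed to 604 in confluent and 4739 in sparse VEC-positive cells, and to 640 in confluent and 1055 in sparse VEC-null cells, with 3 of 7 passing the level filter and 2 of 7 below 50 in every condition. Of these, the mesothelial surface protein gene Msln averaged 3386 ± 166 (SD, n = 2 copies) in sparse VEC-positive cells and 597 ± 3.89 in sparse VEC-null cells, and the keratin gene Krt19 averaged 905 ± 60.7 and 3.9 ± 0.849 in the same conditions, while the epithelial keratin Krt8 had a mean of at most 46.3 in every condition. The 13 smooth muscle and fibroblast markers summed to 3938 in confluent and 11696 in sparse VEC-positive cells, and to 4535 in confluent and 3420 in sparse VEC-null cells. Most of the sum in sparse VEC-positive cells was S100a4, a calcium-binding protein gene, at 9477 ± 1087, against 1146 ± 3.96 in sparse VEC-null cells. S100a4 was 2.99 higher in VEC-positive than in VEC-null cells when sparse (adjusted p 6.2e-07) and fell by 2.43 with confluence in VEC-positive cells. Of the 8 tested genes of that list, 2 were higher and 1 lower in VEC-positive than in VEC-null cells when sparse. Dcn was the other higher one (1.75) and Acta2 the lower one (-1.20), while Col3a1 (-0.70) and Pdgfrb (-0.08) did not pass. Krt19 passed the level filter through sparse VEC-positive cells alone, and Acta2 through sparse VEC-null cells alone. The part of these markers in the Igf1r and Igf2r results was not tested.

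**Figure D1:**
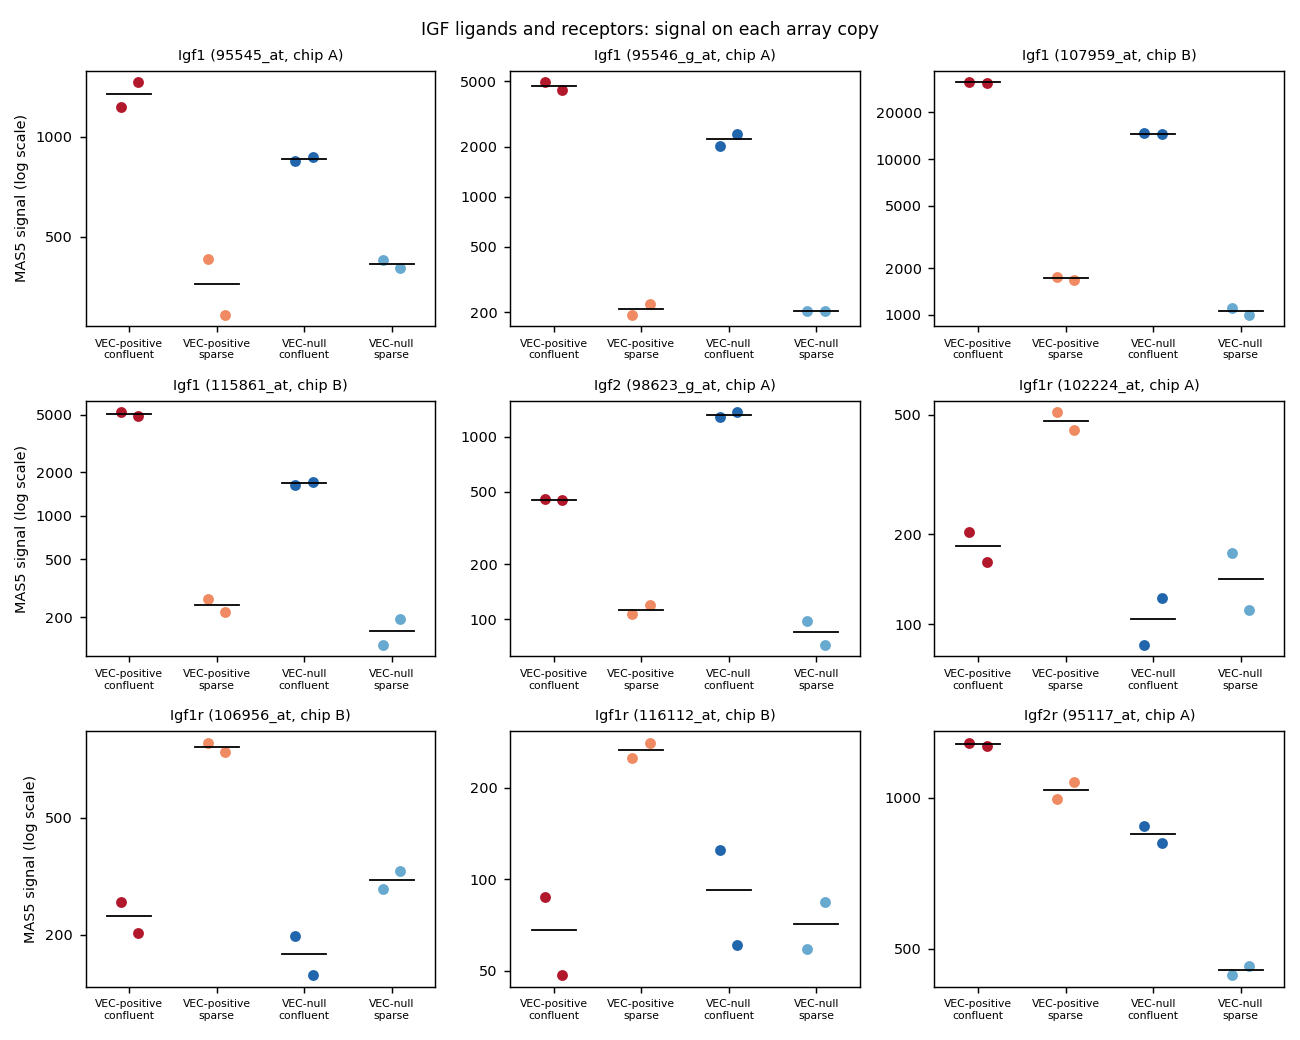
MAS5 signal (log scale, a separate axis for each panel) of the 9 ligand and receptor probe sets that passed the level filter, with 1 point for each array copy and a line at the mean of the 2 copies of a condition. Igf1 is highest in confluent VEC-positive cells, Igf2 in confluent VEC-null cells and Igf1r in sparse VEC-positive cells.

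Igfbp3, which carries most circulating IGF in complex with the acid-labile subunit, had its highest signal in confluent VEC-null cells and the widest range of condition means among the 6 genes (5.08 on the log2 scale). Probe set 95082_at had 327.1 and 254.3 in confluent VEC-positive cells, 65.8 and 75.1 in sparse VEC-positive cells, 3530 and 4611 in confluent VEC-null cells, and 145.8 and 192.5 in sparse VEC-null cells. Probe set 95083_at had 285.9 and 217.9 in confluent and 98.4 and 29 in sparse VEC-positive cells, and 3143 and 3067 in confluent and 153.5 and 105.9 in sparse VEC-null cells. On both probe sets the 4 conditions fell in the same order without overlap, with confluent VEC-null cells first, confluent VEC-positive cells next and sparse VEC-positive cells last.

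At confluence Igfbp3 was lower in VEC-positive than in VEC-null cells, with a log2 change of -3.59 on 95082_at (SE 0.18, 12.1-fold, adjusted p 1.1e-06) and of -3.39 on 95083_at (SE 0.27, 10.5-fold, adjusted p 1.8e-05). When sparse, the changes were -0.86 (SE 0.18, adjusted p 0.0038) and -0.72 (SE 0.27, adjusted p 0.057), and neither passed, although the first passed with no offset (-1.25) or without the first sparse VEC-null copy (-1.01), and the second without the first sparse VEC-positive copy (-1.17). Igfbp3 rose with confluence by 4.23 (SE 0.18, 18.7-fold, adjusted p 9.2e-08) and 4.15 (SE 0.27, 17.7-fold, adjusted p 1.3e-06) in VEC-null cells. In VEC-positive cells it rose by 1.49 (SE 0.18, 2.81-fold, adjusted p 9e-05) and 1.47 (SE 0.27, 2.77-fold, adjusted p 0.0014), calls that were lost with an offset of 200 (0.86 and 0.79). The interaction was -2.74 (SE 0.25, adjusted p 8.4e-05) and -2.68 (SE 0.38, adjusted p 0.00079).

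The probe set annotated to both Igfbp5 and Tmem119, 100566_at, stood above the filter level of its chip (159.4) in a single condition. It had 27.2 and 9.6 in confluent VEC-positive cells, 10.9 and 8.6 in sparse VEC-positive cells, 3394 and 3454 in confluent VEC-null cells, and 11.1 and 15.2 in sparse VEC-null cells. The confluent VEC-null copies were far above the rest, and every copy of the other 3 conditions read 27.2 or less. The log2 change was -5.68 between VEC-positive and VEC-null cells at confluence (SE 0.18, adjusted p 9.4e-08) and 5.78 with confluence in VEC-null cells (SE 0.18, adjusted p 1.8e-08), and it was -0.08 between the lines when sparse and 0.18 with density in VEC-positive cells, neither passing. The interaction was -5.60 (SE 0.25, adjusted p 6.6e-06). Since the other conditions read below the offset of 50, the offset sets the size of these changes, and the difference between the lines at confluence was -7.73 with an offset of 0 and -4.05 with one of 200, passing with each. The probe set does not tell which of the 2 genes gave the signal.

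Some mesenchymal markers had the same high condition as Igfbp3 and this probe set. Col3a1, a fibrillar collagen gene, averaged 49.2 ± 26.2 in confluent and 119 ± 3.82 in sparse VEC-positive cells, and 1565 ± 267 in confluent and 230.2 ± 77.1 in sparse VEC-null cells (SD, n = 2 copies each). Pdgfrb, the platelet-derived growth factor receptor of pericytes and fibroblasts, averaged 10.2 ± 1.70 in confluent and 9.5 ± 1.27 in sparse VEC-positive cells, and 328 ± 23.1 in confluent and 13 ± 4.95 in sparse VEC-null cells. Pdgfrb passed the level filter through confluent VEC-null cells alone. Over the whole list of 13 smooth muscle and fibroblast markers, 8 passed the level filter, and at confluence 2 were higher and 3 lower in VEC-positive than in VEC-null cells. The 2 higher were Dcn (586 ± 22.3 against 231 ± 15.3, log2 1.18) and S100a4 (1718 ± 59.8 against 738 ± 163, log2 1.18), the other direction from Igfbp3. The 3 lower were Col3a1, Pdgfrb and Acta2, and Acta2 was highest in sparse VEC-null cells (371 ± 19.3). The summed signals of that list are given above, and Cnn1, Des and Thy1 were below 50 in every condition. The 5 blood cell markers summed to 589.6 in confluent and 804 in sparse VEC-positive cells, and to 1289 in confluent and 535 in sparse VEC-null cells, and the leukocyte gene Ptprc averaged between 9.1 and 14.1. The part of these markers in the Igfbp3 results was not tested.

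Igfbp4, a binding protein that mainly holds IGFs back from the receptor, rose with confluence in VEC-positive cells on 101571_g_at. This probe set had 3286 and 3264 in confluent and 697.4 and 558.2 in sparse VEC-positive cells, and 1863 and 2351 in confluent and 1244 and 839.4 in sparse VEC-null cells. The conditions did not overlap, with confluent VEC-positive cells the highest and sparse VEC-positive cells the lowest. The density change was 2.30 in VEC-positive cells (SE 0.18, 4.93-fold, adjusted p 5.5e-06). In VEC-null cells it lay just under the threshold of 1 (0.9985, SE 0.18, adjusted p 0.0013) and passed with no offset (1.03), after quantile normalisation (1.06), without the first sparse VEC-null copy (1.27) and without the first confluent VEC-null copy (1.16). The interaction was 1.30 (SE 0.25, adjusted p 0.0044), and the lines differed by 0.63 at confluence and -0.67 when sparse, neither passing.

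The second Igfbp4 probe set to pass the level filter, 94222_at, had 479.9 and 483.2 in confluent and 233.1 and 206.6 in sparse VEC-positive cells, and 404.2 and 314.6 in confluent and 153 and 204.6 in sparse VEC-null cells. Confluent copies lay above sparse ones in each line, but the density changes of 0.98 (adjusted p 0.0009) and 0.84 (adjusted p 0.0022) were below 1 in VEC-positive and VEC-null cells, and the interaction was 0.14 (adjusted p 0.69). Both density changes passed with no offset (1.13 and 1.01), and leaving out 1 sparse copy also gave a call, at 1.05 in VEC-positive cells without the first and 1.0033 in VEC-null cells without the second. The 2 probe sets therefore disagreed on whether the density response differed between the lines. The third, 101570_at, read between 7.8 and 82.7 on all arrays of its chip and did not pass the level filter.

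**Figure D2:**
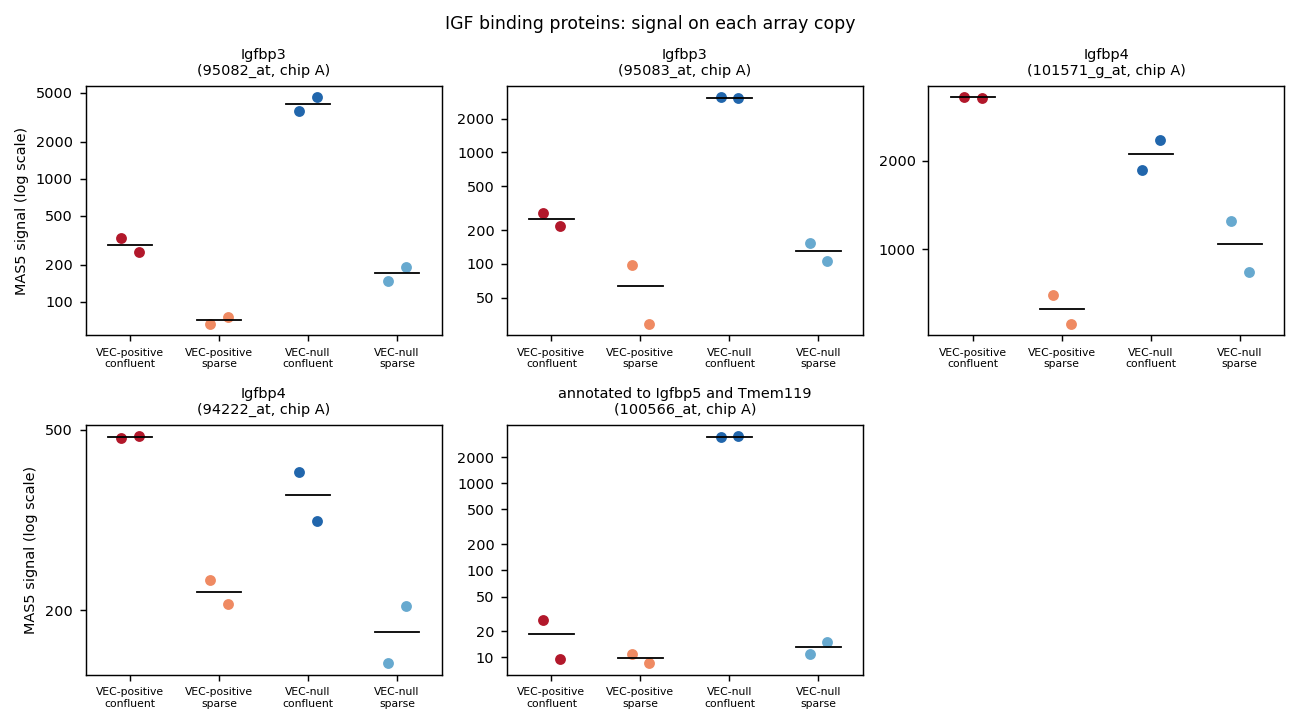
MAS5 signal (log scale, a separate axis for each panel) of the 4 binding protein probe sets that passed the level filter and of the probe set annotated to both Igfbp5 and Tmem119, with 1 point for each array copy and a line at the mean of the 2 copies of a condition. Both Igfbp3 probe sets and the shared one are highest in confluent VEC-null cells, and Igfbp4 in confluent VEC-positive cells.

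The remaining binding proteins stayed below the filter level in every condition, and the main fit did not test them. Without the level filter all 18 probe sets were tested, and the interaction passed in 3 with a higher and 4 with a lower response. With both Igf1r calls lost there, the 4 lower calls included a probe set below the filter level, whose change is not given here. Igfbp2, a binding protein abundant in fetal tissues, read 85.4 and 78.4 in confluent and 44.6 and 86.4 in sparse VEC-positive cells, and 73.2 and 68.8 in confluent and 55.8 and 50.8 in sparse VEC-null cells. Igfbp6, which prefers IGF2, read 81.9 and 69.5 in confluent and 36.7 and 48.3 in sparse VEC-positive cells, and 66 and 78.5 in confluent and 54.2 and 61.3 in sparse VEC-null cells. Igfbp7 read 72.3 and 27.7 in confluent and 107.5 and 110.2 in sparse VEC-positive cells, and 146.7 and 110 in confluent and 51.3 and 51.2 in sparse VEC-null cells. Igfbp7 was higher when sparse in VEC-positive cells and higher at confluence in VEC-null cells, without overlap of the copies. All 3 genes were dim throughout, each on a single probe set, and MAS5 detection calls were not used here.

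The calls over all comparisons were then counted. With confluence in VEC-positive cells, 8 of the 13 probe sets that passed the level filter were higher and 3 lower. Of all 14246 tested probe sets 15.4% passed in that comparison, 8.16% higher and 7.22% lower, and the median change was 1.49 on the IGF probe sets against 0.02 for all tested. In VEC-null cells 6 were higher and 0 lower, against 16.5% of all tested (9.1% higher and 7.41% lower), with a median of 1.00 against -0.00. VEC-positive cells had 3 higher and 3 lower than VEC-null cells at confluence, against 7.93% of all tested (4.31% higher and 3.62% lower). When sparse, 4 were higher and 0 lower, against 9.7% of all tested (5.43% higher and 4.27% lower). The interaction passed in 3 with a higher and 5 with a lower response in VEC-positive cells, against 12.2% of all tested (5.91% higher and 6.34% lower). These counts come from probe sets of which some share a gene, and the level filter favours probe sets that differ. By gene, 4 of 6 were higher and 1 lower with confluence in VEC-positive cells, 3 higher and 0 lower in VEC-null cells, 1 higher and 2 lower in VEC-positive cells at confluence, and 2 higher and 0 lower in VEC-positive cells when sparse.

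The same genes were also read with the 4 cRNA samples as units, with line and density as additive terms. With 1 sample per condition, the 1 residual degree of freedom per chip of that fit is the interaction between line and density and not a spread between samples, so a line effect that differs between densities, or a density effect that differs between lines, is weakened by construction. In that limma fit 9 of the 13 probe sets passed for density, 8 higher and 1 lower at confluence, against 9.83% of all tested. For the line, 0 of the 13 passed, against 2.04% of all tested, with 7 at an unadjusted p below 0.05 and a smallest adjusted p of 0.079. The averaged line effect was -2.22 and -2.06 on the Igfbp3 probe sets, -0.59 on Igf2, -2.88 on the probe set shared by Igfbp5 and Tmem119, and 0.54, 0.88 and 1.02 on the Igf1 probe sets 95546_g_at, 107959_at and 115861_at. Igfbp3, Igf2 and the shared probe set had large interactions, so these values are given as averages over the densities and do not test the line differences above.

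**Figure D3:**
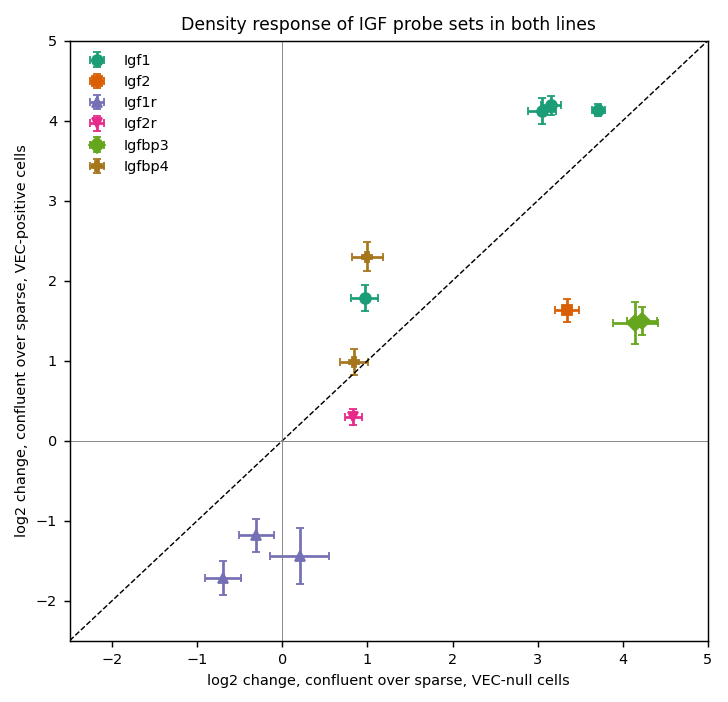
Log2 change with confluence in VEC-positive cells (vertical axis) against that in VEC-null cells (horizontal axis) for the 13 probe sets, with SE bars from the limma fit and a dashed line where both responses are equal. Igf1 lies in the upper right above the line at 3.05 to 3.71 in VEC-null cells on 3 of 4 probe sets, Igf2 and Igfbp3 lie below it, and Igf1r lies at -1.19 to -1.72 on the vertical axis.

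Genes with the most similar pattern to the 3 members of widest range were found by the root mean square (rms) difference between centred log2 means over the 4 conditions, on the same chip. With 4 points from shared arrays, this is a description only. Nearest to Igf1 among 2389 probe sets were F8, coagulation factor VIII (rms 0.25), Gpr182, an endothelial chemokine-binding receptor (0.27), and Gem, a small GTP-binding protein (0.30). F8 averaged 3665 ± 446 in confluent and 184.5 ± 8.91 in sparse VEC-positive cells, and 1465 ± 48.4 in confluent and 223.8 ± 11.7 in sparse VEC-null cells. Nearest to Igf2 were Adam19, a membrane metalloprotease (0.25), Efna1, an ephrin ligand (0.27), and Mmp14, a membrane-bound collagenase (0.27). Nearest to Igfbp3 were Saa3, an acute-phase protein (0.39), Ldb2, a LIM-domain binding cofactor (0.55), and Postn, the matrix protein periostin (0.56). Saa3 averaged 1014 ± 6.86 in confluent and 281.8 ± 36.7 in sparse VEC-positive cells, and 7309 ± 450 in confluent and 312 ± 1.70 in sparse VEC-null cells, so that its highest condition was also confluent VEC-null.

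Beyond the 10 genes, 32 other genes of the pathway passed the level filter. With confluence 5 were higher and 4 lower in VEC-positive cells (median 0.24), where 15.4% of all tested probe sets passed, and 5 higher and 4 lower in VEC-null cells (median 0.23), where 16.5% passed. Between the lines, VEC-positive cells had 3 higher and 1 lower at confluence (median -0.10, against 7.93% of all tested) and 2 higher and 2 lower when sparse (median -0.13, against 9.7%). The interaction passed in 4 with a higher and 3 with a lower response, against 12.2% of all tested. Of the genes with a call, Irs1, Plagl1 and Cdkn1c passed the level filter only through the condition where each was highest. The filter therefore favoured their part in these counts. In the insulin receptor family and the other binding proteins, 1 of 7 genes passed the level filter. That gene was Insr, the insulin receptor, with changes from -0.47 to 0.46 in the 4 comparisons and no call, while Igfbp1, Igfals, Igfbpl1, Insrr, Ins2 and Kazald1 did not pass the filter.

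Among receptor substrates and adaptors, 10 of 14 genes were tested. Irs1, the docking protein phosphorylated by IGF1R and the insulin receptor, averaged 101 ± 6.79 in confluent and 615 ± 56.3 in sparse VEC-positive cells, and 120 ± 10.4 in confluent and 205 ± 25.7 in sparse VEC-null cells. Its highest condition was thus that of Igf1r. Irs1 was above the filter level of chip B (235.1) in that condition only, so it was tested only because of the condition where it was highest. It fell by 2.14 with confluence in VEC-positive cells (SE 0.23, adjusted p 5.4e-05). It was 1.38 higher in VEC-positive than in VEC-null cells when sparse (SE 0.23, adjusted p 0.0013) and had an interaction of -1.56 (adjusted p 0.0068). Socs2, an inhibitor of growth hormone signalling, rose with confluence by 1.97 in VEC-positive and 1.43 in VEC-null cells. Grb10, an imprinted adaptor that inhibits IGF1R and insulin receptor signalling, rose by 1.24 and 1.07 in VEC-positive and VEC-null cells. Socs3, an inhibitor of cytokine signalling, was lower in VEC-positive than in VEC-null cells at confluence (-1.12, adjusted p 0.00054) and had an interaction of -1.07. With an offset of 200 the Grb10 and Socs3 calls were lost (0.84 and 0.74 for Grb10 with density, -0.77 for Socs3 at confluence). Without single sparse or confluent VEC-null copies Grb10 was at 0.87 and 0.94 in VEC-null cells, and after quantile normalisation it was at 0.98 there. Without the first sparse VEC-positive copy the Socs3 interaction was -0.91.

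Of the PI3 kinase and Akt genes, 9 of 11 were tested. The kinase gene Akt2 was 1.09 higher in VEC-positive than in VEC-null cells at confluence (SE 0.13, adjusted p 0.00021), at 698.9 ± 36.1 against 301.7 ± 33.2, a change of 0.84 once the offset was 200 and of 0.9963 without the first confluent VEC-null copy. Pik3cb, a catalytic subunit of PI3 kinase, fell by 1.48 with confluence in VEC-positive cells (SE 0.20, adjusted p 0.0002). The remaining 7 tested genes of this list passed in none of the 5 comparisons.

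Of the IGFBP proteases and their inhibitors, 5 of 7 genes were tested. Adam12, a metalloprotease that can cleave IGFBP3 and IGFBP5, rose with confluence by 2.26 in VEC-positive cells (SE 0.13, adjusted p 7e-07) and 1.74 in VEC-null cells (SE 0.13, adjusted p 3.8e-06). Stc2, a stanniocalcin that inhibits the IGFBP4 protease PAPP-A, rose by 1.04 and 1.12 in VEC-positive and VEC-null cells, and both calls were lost with an offset of 200 (0.73 and 0.83). The call in VEC-positive cells was also lost after quantile normalisation (0.90) and without the first sparse (0.9985) or second confluent (0.97) VEC-positive copy. Ctsd, the lysosomal protease cathepsin D, averaged 14570 ± 582 in confluent and 11698 ± 635 in sparse VEC-positive cells, and 12508 ± 613 in confluent and 4273 ± 6.86 in sparse VEC-null cells. Sparse VEC-null cells stood apart for Ctsd, which was 1.44 higher in VEC-positive than in VEC-null cells when sparse (adjusted p 1.2e-06) and 1.54 higher with confluence in VEC-null cells (adjusted p 2.1e-07), with an interaction of -1.22 that was lost after quantile normalisation (-0.77).

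Among IGF2 mRNA-binding, imprinted and partner genes, 3 of 6 were tested. Plagl1, an imprinted zinc finger gene that, like Igf1, lies on chromosome 10, averaged 420 ± 54.2 in confluent and 52 ± 4.95 in sparse VEC-positive cells, and 49.4 ± 4.24 in confluent and 101 ± 2.05 in sparse VEC-null cells. It was 2.24 higher in VEC-positive than in VEC-null cells at confluence (SE 0.17, adjusted p 1.5e-05), rose by 2.20 with confluence in VEC-positive cells and had an interaction of 2.80. Plagl1 was above the filter level (159.4) in confluent VEC-positive cells only, so it was tested only because of the condition where it was highest. Cdkn1c, an imprinted inhibitor of cyclin-dependent kinases near Igf2, was lower in VEC-positive than in VEC-null cells when sparse (-1.29, adjusted p 0.0028) and fell by 1.12 with confluence in VEC-null cells, with an interaction of 1.14. These Cdkn1c calls were lost with an offset of 200 (-0.62, -0.55 and 0.56), the density call without the first confluent VEC-null copy (-0.82) and the interaction without any of 5 of the 8 chip A copies (0.84 to 1.21). The interaction call was also lost with an offset of 0 (1.79, adjusted p 0.11) and without the level filter (1.14, adjusted p 0.072). Cdkn1c was above the filter level in sparse VEC-null cells only, at 167 ± 10.3.

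The CCN genes, matricellular proteins once grouped with the IGFBPs, had 4 of 5 members tested, and 2 of them fell with confluence in both lines. Ccn2, connective tissue growth factor, averaged 696 ± 63.8 in confluent and 12247 ± 2091 in sparse VEC-positive cells, and 138 ± 2.12 in confluent and 6631 ± 800 in sparse VEC-null cells. It fell with confluence, with log2 changes of -4.04 in VEC-positive and -5.14 in VEC-null cells (SE 0.13, adjusted p 2.2e-08 and 6.9e-09) and was 1.98 higher in VEC-positive than in VEC-null cells at confluence (adjusted p 6.7e-06), with an interaction of 1.11 that was lost with an offset of 200 (0.54), without the second sparse VEC-null copy (0.99) and without the first sparse VEC-positive copy (0.94). Ccn1 fell too, with changes of -3.55 in VEC-positive and -3.78 in VEC-null cells. Ccn4 fell by 1.24 with confluence in VEC-null cells, with an interaction of 1.52 (adjusted p 0.00023), and was lower in VEC-positive than in VEC-null cells when sparse (-1.34, adjusted p 3.1e-05).

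**Figure D4:**
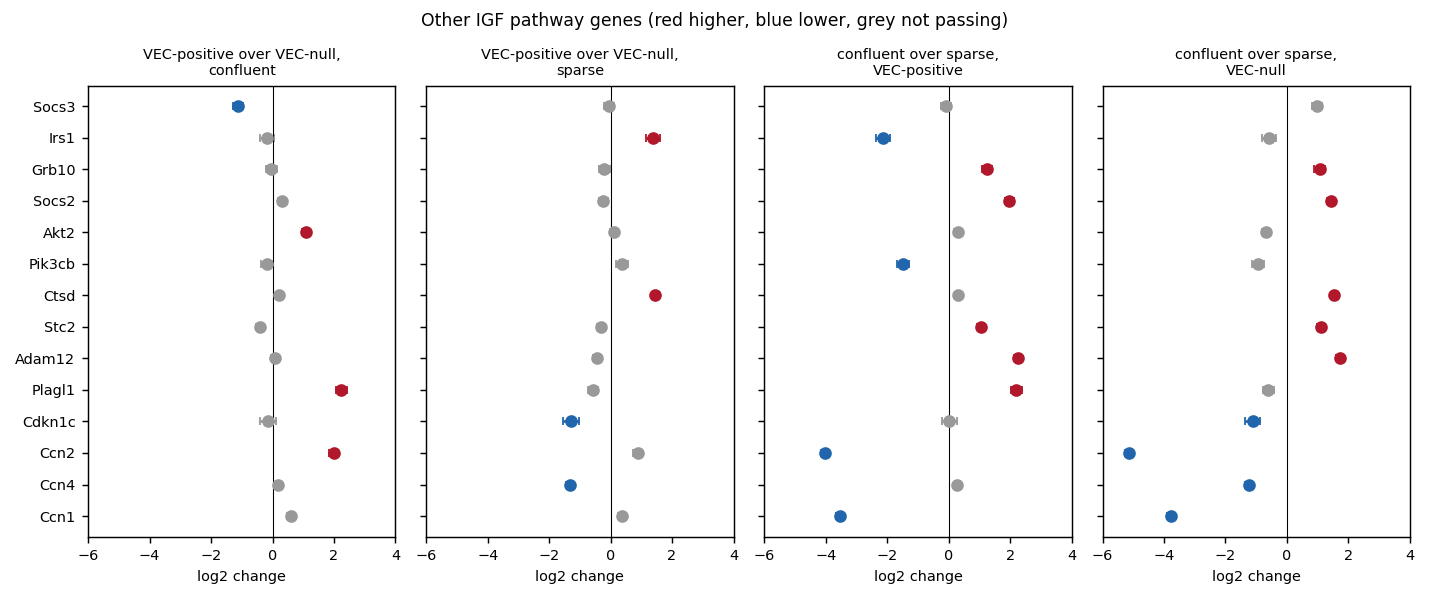
Log2 change with its SE in the 4 comparisons for the 14 other pathway genes that passed in at least 1 comparison or in the interaction, in red where higher, blue where lower and grey where the change did not pass. Ccn1 and Ccn2 lie far to the left with confluence in both lines, while Adam12, Socs2, Grb10 and Stc2 lie to the right in both.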

How the data were processed

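RNA of 4 conditions was measured on MG_U74Av2 (chip A) and MG_U74Bv2 (chip B), 2 array copies per condition and chip. The deposited values are intensities on a linear scale, MAS5 signals scaled by the authors to a target of 500, per the labels' design text. Trimmed means were 500.1 to 500.3, leaving out 2% at each end. The median normalisation that the series text names was not applied again, and 0 columns belonged to another series. MAS5 does its own background subtraction, so low signals are imprecise, and the number of arrays limits the precision throughout.

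Symbols came from the platform annotation and were checked by Entrez identifier against RefSeq GRCm38.p6 (21367 probe sets matched, and 0 symbols needed a change). Leaving out controls, 24833 probe sets remained, 21414 of them with 1 symbol, 574 with several and 2845 with none. The level filter kept probe sets with at least 1 condition whose mean log2 value exceeded the chip median (signal 159.4 on chip A, 235.1 on chip B), which left 7006 and 7240. Values of log2(signal + 50) were modelled with limma 3.58.1 (R 4.3.3), 1 fit for each chip with all 4 conditions in it (eBayes with trend, 4 residual degrees of freedom), with Benjamini-Hochberg adjustment over the 14246 kept probe sets. On simulated data for the confluent line comparison (14303 probe sets tested), 81% of 100 changes of log2 1.5 and 97% of 100 changes of log2 2.5 were recovered, with 2 false calls. The simulated noise was drawn from the spread between array copies. The check therefore says nothing of false calls that arise from differences between cultures.

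All probe sets of the 10 genes are named. Where 1 probe set stands for a gene, chip A took precedence, then the highest mean signal. Other pathway genes are named where they passed at least 1 comparison, and for the 3 genes of widest range the 3 most similar genes are named. The members and lists were chosen with earlier results of these data known. Alternatives were offsets of 0 and 200, no level filter or one at the 75th percentile, quantile normalisation, adjustment per chip, eBayes without trend, the copy number as a replicate block, each copy left out, and the 4 cRNA samples as units. The copy numbers did not pair the arrays: correlations of copy differences between conditions were -0.089 to 0.077.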

Additional observations from a re-analysis of the deposited data

Results flagged for a closer look

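The density response (confluent over sparse) differed between the lines on 8 of the 13 IGF probe sets and on the shared one, by the interaction term of the limma fit, given as VEC-positive minus VEC-null on the log2 scale, where 12.2% of all tested probe sets passed. Igf1 responded more in VEC-positive cells, by 1.04 on 95546_g_at and 1.07 on 115861_at, as did Igfbp4 on 101571_g_at, by 1.30. Igf2 responded less in VEC-positive cells on 98623_g_at (-1.72), and so did Igfbp3 on 95082_at (-2.74) and 95083_at (-2.68). The interaction of Igf1r was -1.03 on 106956_at and -1.65 on 116112_at, where the signal was highest in sparse VEC-positive cells. Probe set 116112_at passed the level filter through that condition alone. The probe set annotated to both Igfbp5 and Tmem119 had -5.60. The calls on both Igf1 and both Igf1r probe sets were lost with an offset of 0 or of 200 or without single copies, and the count of 8 was 5 with either offset. Each difference is measured against the spread between array copies of 1 cRNA sample per condition.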

How the results depend on the processing

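In the order VEC-positive over VEC-null at confluence and when sparse, density in VEC-positive and in VEC-null cells, and interaction, the IGF probe sets that passed numbered 6, 4, 11, 6 and 8, and all probe sets 1129, 1382, 2190, 2352 and 1745. With an offset of 0 the IGF interaction count was 5, and that of all probe sets was 1919. With an offset of 200 the IGF counts were 1 between sparse lines, 7 for density in VEC-positive cells and 5 for the interaction, and all counts were 590, 689, 1305, 1444 and 1017. A level filter at the 75th percentile gave 2 IGF calls between sparse lines, and 691 and 913 of all probe sets between the lines at confluence and when sparse. That filter left 10 IGF probe sets and 8068 of all to test, against 13 and 14246 in the main fit. All 52 main calls on named probe sets that were still tested there stayed calls. With the 4 cRNA samples as units, IGF calls between the lines were 0 (7 at an unadjusted p below 0.05), and all calls 291 for line and 1400 for density. That fit has the interaction as its residual, which weakens effects that differ between lines or densities by construction. The cause of the shifts with the offset was not tested.

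The following changes, none of which passed, turned sign in that last fit. They were Igf1r 116112_at between confluent lines (0.57) and with density in VEC-null cells (-0.62), Igfbp4 101571_g_at between confluent lines (-0.018), Igf1 95545_at (0.21) and Igf2 98623_g_at (-0.59) between sparse lines, and Cdh5 between confluent lines (0.056). Its averaging of 2 comparisons makes this possible by construction.

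Leaving out each copy in turn gave 5 to 6, 3 to 5, 11 to 12, 6 to 8 and 5 to 9 IGF calls. In the same order, calls over all probe sets were 1121 to 1173, 1349 to 1497, 2161 to 2273, 2306 to 2414 and 1650 to 1825. The lowest IGF interaction count, 5, came without the second sparse VEC-null or second sparse VEC-positive copy of chip B. Changes that turned sign, all without a call, ranged from -0.59 to 0.071 (Igf1r 116112_at, confluent lines), -0.13 to 0.53 (the same set, density in VEC-null cells), -0.45 to 0.043 (Igf1 95545_at, sparse lines), -0.057 to 0.11 (Igf1 95546_g_at, sparse lines), -0.0034 to 0.37 (the set shared by Igfbp5 and Tmem119, density in VEC-positive cells), -0.024 to 0.30 (Igfbp4 94222_at, interaction) and -0.076 to 0.032 (Cdh5, confluent lines).

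With the replicate number as a block, the IGF counts were 6, 4, 11, 6 and 8 and all counts 1131, 1383, 2192, 2357 and 1742, and no call on a named probe set changed. Since the numbers do not pair the arrays, this block has no basis in the design. Each condition rests on 1 cRNA sample, and signals near or below 50 carry little information.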
